A study of Mus musculus with 10 samples.

Results

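The genes described here move iron into cells, store it, carry it out again and sense how much is present. The list held 10 genes, chosen by name: Fth1, Ftl1, Tfrc, Trf, Slc40a1, Slc11a2, Slc39a14, Aco1, Ireb2 and Hamp. Each gene was read from the brightest probe set, by its mean of 10 arrays, among those annotated to that gene alone. By that rule 8 of the 10 genes were measured, out of 18193 genes in all, with 21 probe sets between them. All probe sets of Ftl1, the ferritin light chain, and of Trf, transferrin, were annotated to several genes, and their values are not given.

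The study compared wild-type (WT) male mice with male mice that overexpress the heat shock protein Hsp72 (Hsp72Tg). RNA came from brain hemispheres 24 h after surgery, which was either sham or an occlusion of the middle cerebral artery (MCAO) that models ischaemic stroke. The 4 groups were WT sham (n = 2), Hsp72Tg sham (n = 2), WT MCAO (n = 3) and Hsp72Tg MCAO (n = 3), from the ischaemic hemisphere after MCAO and from the same side after sham surgery. For the transgene's promoter, and for the strain and age of the mice, the sources used here give nothing. Values are log2 expression values from Affymetrix arrays, so a difference of 1 is a doubling, and levels of different genes cannot be compared.

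Cells take up iron bound to transferrin through the transferrin receptor, or unbound iron through the transporters ZIP14 (Slc39a14) and DMT1 (Slc11a2). Ferritin, built from Fth1 and Ftl1 chains, stores iron, and ferroportin (Slc40a1) carries it out of the cell until the peptide hormone hepcidin (Hamp) binds ferroportin and sends it for degradation. The iron regulatory proteins made from Aco1 and Ireb2 bind hairpins in these messages, blocking translation of ferritin and stabilising the transferrin receptor message. The block on translation and the degradation of ferroportin lie beyond the mRNA level measured here.

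Tissue and array quality were read from marker genes. The mean log2 level of 7 neuron markers lay between 12.15 and 12.52 on every array, so markers of the labelled tissue were present. Hspa1a and Hspa1b, which encode Hsp72, were not higher in Hsp72Tg than in WT after sham surgery: Hspa1b read 9.12 and 9.15 in Hsp72Tg sham against 9.38 and 9.48 in WT sham. After MCAO the Hsp72Tg means were higher by 0.84 for Hspa1a and 0.56 for Hspa1b. The arrays of the genotypes overlapped there, and neither difference passed the test used below. The labels do not describe the construct, so the genotype labels are unchecked. WT sham 1 carried a cerebellar signal that the other arrays lacked, with a mean of 9.10 over 7 granule cell markers against 7.23 to 7.71. Hsp72Tg MCAO 1 lay nearest to the sham arrays among the MCAO arrays, with a mean of 7.04 over 8 macrophage and activated microglia markers against 7.95 to 8.48 in the other MCAO arrays and 6.31 to 6.49 after sham surgery. It was singled out for this closeness, so leaving it out favours larger changes after MCAO. A call gained without it is therefore no separate support. Calls on iron genes over both genotypes that change without these arrays are stated below, though not all with their values.

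Promoter sequence is shown for the genes whose known inducers bear on a stroke hemisphere. RefSeq windows of 250 bases before the start were at hand for 6 of the listed genes (Aco1, Hamp, Ftl1, Ireb2, Tfrc and Fth1), with 8 windows in all, on GRCm38.p6. Both strands were searched for the STAT motif TTCNNNGAA, the bone morphogenetic protein (BMP) response element GGCGCC and the hypoxia response core ACGTG, none of which overlapped another in the sequences shown. They occurred in 7.02%, 9.59% and 16.6% of 32851 promoter windows. The antioxidant motif TGACNNNGC, found in 10.2% of them, was in no window of these genes. Hamp held both motifs through which interleukin-6 and BMP signals are known to drive hepcidin, 97 and 109 bases before its start, and they stand in capitals in the window chr7:30944030-30944279, minus strand.
Hamp: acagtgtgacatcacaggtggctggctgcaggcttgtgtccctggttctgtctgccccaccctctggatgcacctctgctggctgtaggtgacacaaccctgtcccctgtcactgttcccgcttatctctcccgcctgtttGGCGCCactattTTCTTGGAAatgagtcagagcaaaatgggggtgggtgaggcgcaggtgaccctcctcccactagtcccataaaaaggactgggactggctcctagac
Tfrc, a known hypoxia target, held the hypoxia core 228 bases before the later of its 2 annotated starts, shown in capitals within 30 bases at chr16:32608882-32608911, plus strand.
Tfrc: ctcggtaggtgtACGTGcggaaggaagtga
The hypoxia core lies across the earlier Tfrc start itself, at 32608896, and the window before that start held no match to it. Tfrc also held GGCGCC 89 bases before its earlier start. A match describes the sequence and does not show that a factor binds there.

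Over both genotypes (6 MCAO arrays against 4 sham arrays) the importer Slc39a14 rose after MCAO, and the exporter Slc40a1 had the largest lower value without passing the test. Of the 8 measured genes 1 passed limma's test at a Benjamini-Hochberg adjusted p under 0.05, against 1.46% of all genes. The changes were positive in 5 genes and negative in 3, with a median of 0.06 on the log2 scale against -0.03 for all genes. Slc39a14 was the one gene with every MCAO array above every sham array, which held for 3.19% of all genes. Slc40a1 was the one gene with every MCAO array below every sham array, which held for 3.41%.

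**Figure D1:**
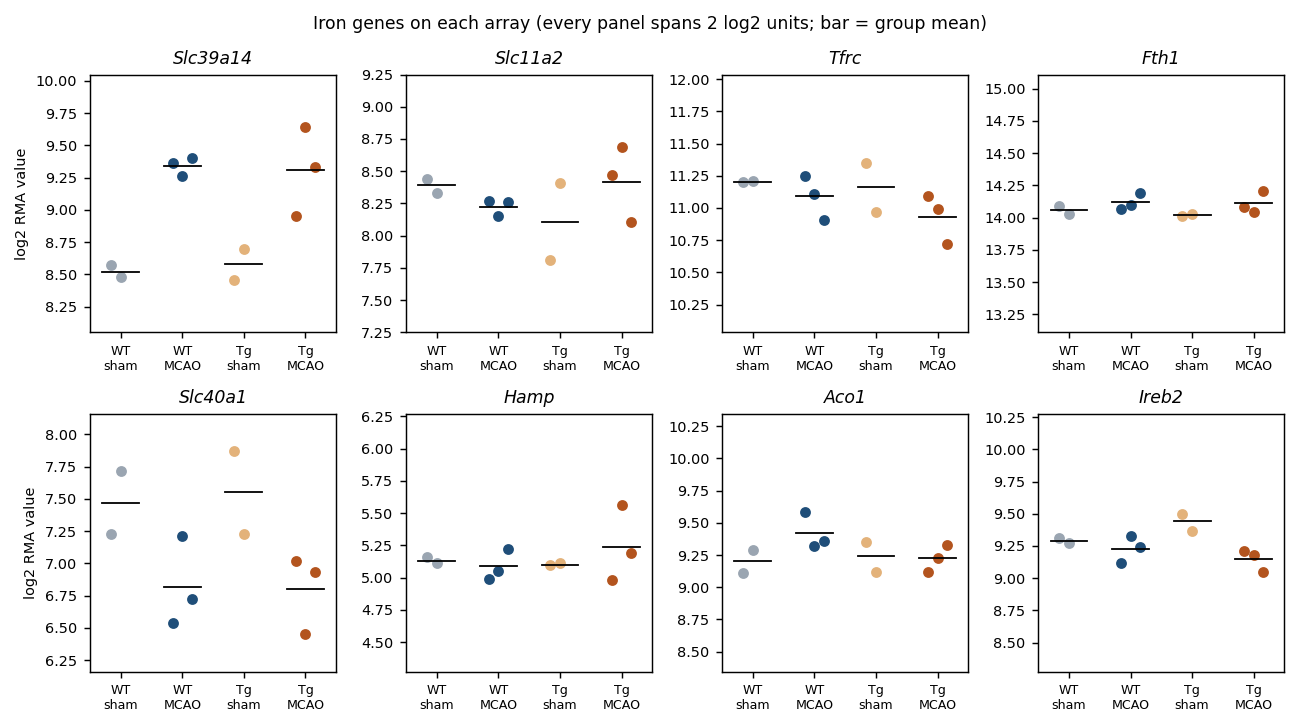
Log2 RMA value (vertical axis, each panel spanning the same range of log2 units) of the 8 measured iron genes on the 10 arrays, by group on the horizontal axis (Tg, Hsp72Tg). Points are arrays and bars are group means. The 6 MCAO arrays of Slc39a14 lie between 8.95 and 9.64, above the 4 sham arrays (8.46 to 8.70), while the MCAO and sham arrays of Fth1 and of Aco1 overlap over both genotypes.

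Slc39a14 encodes ZIP14, a zinc and iron importer of the cell surface that interleukin-6 is known to induce in liver. It read 8.57 and 8.48 in WT sham, 8.46 and 8.70 in Hsp72Tg sham, 9.36, 9.26 and 9.40 in WT MCAO and 8.95, 9.64 and 9.33 in Hsp72Tg MCAO. All 6 MCAO arrays were thus higher than all 4 sham arrays, and the lowest of them was Hsp72Tg MCAO 1. The rise over both genotypes was 0.77 (SE 0.12, 95% interval 0.50 to 1.05), a 1.71-fold difference with an adjusted p of 0.0274 in limma. Its unadjusted p was 0.000105.

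The rise of Slc39a14 kept its direction and lay between 0.69 and 0.86 when single arrays were left out, but the call did not hold in each of these fits. It held without any one Hsp72Tg MCAO array (adjusted p = 0.000368 without Hsp72Tg MCAO 1). It was lost in limma without WT sham 1 (adjusted p = 0.114), WT sham 2 (0.111), Hsp72Tg sham 1 (0.124), Hsp72Tg sham 2 (0.0531), WT MCAO 1 (0.0804), WT MCAO 2 (0.0729) or WT MCAO 3 (0.0992). Without both WT sham 1 and Hsp72Tg MCAO 1 the rise was 0.89 with an adjusted p of 0.00253.

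Slc39a14 had 4 probe sets, and the rise was not equally large on them. Beside 0.77 on the probe set used, they gave 0.69 (SE 0.28), 0.35 (SE 0.11) and 0.21 (SE 0.12), all positive and none past the threshold. The probe set with 0.69 was dim, at 4.78 to 5.05 on the sham arrays, where the lower quartiles of the arrays were 5.14 to 5.21. On it Hsp72Tg MCAO 1 read 4.89, within the sham range, and Hsp72Tg MCAO 2 read 6.63, the highest. With the mean over all 4 probe sets the rise was 0.51 and no longer passed (adjusted p = 0.0833).

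The genes whose values followed Slc39a14 most closely over the 10 arrays were Slc3a2, the heavy chain of amino acid transporters, with Pearson r = 0.987, Adamts1, a secreted protease, with r = 0.986, and Socs3, the feedback inhibitor of STAT3 signalling, with r = 0.985. These points share the split into sham and MCAO arrays, so many genes that differ between them will correlate.

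Tfrc encodes the transferrin receptor, the main entry for transferrin-bound iron. It read 11.20 and 11.21 in WT sham, 11.35 and 10.97 in Hsp72Tg sham, 11.25, 11.11 and 10.91 in WT MCAO and 11.09, 10.99 and 10.72 in Hsp72Tg MCAO. The MCAO and sham ranges overlapped. The difference over both genotypes was -0.17 (SE 0.11, interval -0.41 to 0.07, adjusted p = 0.428 in limma).

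The other Tfrc probe sets also had negative differences, -0.32 (SE 0.15) and -0.23 (SE 0.13), and did not pass. On the first of them WT MCAO 1 read 6.72 against 7.16 to 7.57 on the other MCAO arrays and 7.52 to 7.75 on the sham arrays. WT MCAO 1 was not low on the probe set used, where it read 11.25. It had the largest gap between the 3′ and 5′ control probe sets of beta-actin, 1.178 against 0.712 to 1.005 on the other arrays. The part of RNA quality in the low Tfrc readings was not tested. The 3 control probe sets for Tfrc on the array differed by -0.05 to -0.14 after MCAO in WT and by -0.16 to -0.32 in Hsp72Tg.

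Slc11a2 encodes DMT1, which carries ferrous iron out of endosomes and into gut cells. It read 8.44 and 8.33 in WT sham, 7.81 and 8.41 in Hsp72Tg sham, 8.27, 8.15 and 8.26 in WT MCAO and 8.47, 8.69 and 8.11 in Hsp72Tg MCAO. Hsp72Tg sham 1 was the lowest of all arrays and Hsp72Tg MCAO 2 the highest. The difference over both genotypes was 0.08 (SE 0.14, adjusted p = 0.805). Its 4 probe sets gave 0.08, 0.03, -0.13 and -0.16, so no direction can be given, and without Hsp72Tg sham 1 the probe set used gave -0.08.

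**Figure D2:**
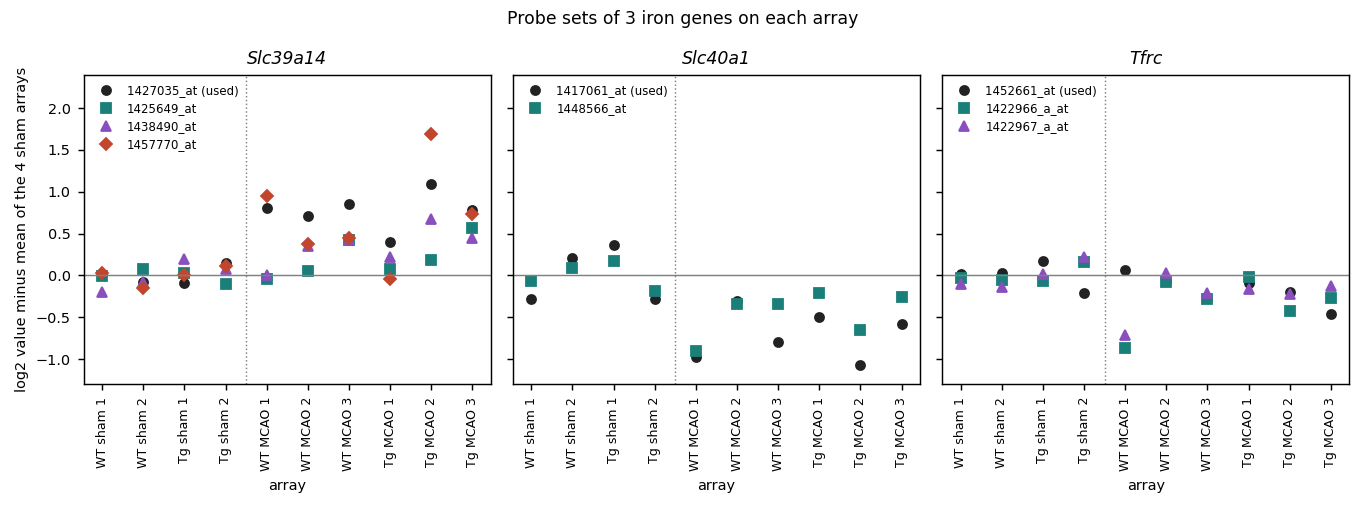
Log2 value minus the mean of the 4 sham arrays (vertical axis) for every probe set of Slc39a14, Slc40a1 and Tfrc annotated to that gene alone, on each array (horizontal axis; Tg, Hsp72Tg). Points are single arrays and "used" marks the probe set of the main values. Both Slc40a1 probe sets lie below their sham values on all 6 MCAO arrays, and WT MCAO 1 is low on 2 of the 3 Tfrc probe sets.

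Slc40a1 encodes ferroportin, the iron exporter. It read 7.23 and 7.72 in WT sham, 7.87 and 7.23 in Hsp72Tg sham, 6.54, 7.21 and 6.72 in WT MCAO and 7.02, 6.45 and 6.93 in Hsp72Tg MCAO. The 6 MCAO arrays were all lower than the 4 sham arrays, though WT MCAO 2 at 7.21 lay just under the lowest sham arrays at 7.23. The difference over both genotypes was -0.70 (SE 0.19, interval -1.12 to -0.28), a 1.63-fold lower mean with an adjusted p of 0.0921 in limma, so Slc40a1 did not pass. Its unadjusted p was 0.00415, and 19.1% of all genes had an unadjusted p under 0.05.

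The other probe set of Slc40a1 gave -0.45 (SE 0.15), also with all 6 MCAO arrays lowest, between 6.36 and 7.06 against 7.08 to 7.44. Single arrays mattered here too, and without Hsp72Tg MCAO 1 12.4% of all genes passed over both genotypes. Slc40a1 passed without Hsp72Tg MCAO 1 (-0.76, adjusted p = 0.032) and without both WT sham 1 and Hsp72Tg MCAO 1 (-0.88, adjusted p = 0.0422). The difference lay between -0.86 and -0.54 when single arrays were left out.

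Hamp encodes hepcidin, the liver hormone that removes ferroportin from the cell surface. It read 5.16 and 5.11 in WT sham, 5.10 and 5.11 in Hsp72Tg sham, 4.99, 5.05 and 5.22 in WT MCAO and 4.98, 5.56 and 5.19 in Hsp72Tg MCAO. Most of these values lay around the lower quartile of their array, so a small change could be hidden by background signal. Hsp72Tg MCAO 2 alone stood higher. The difference was 0.04 (SE 0.11, interval -0.20 to 0.29, adjusted p = 0.861), and 0.08 on its other probe set. Without Hsp72Tg MCAO 2 it was -0.04. The probe sets used for Hamp, for Aco1 and for Fth1 carry suffixes that mark probes shared with other sequences or transcripts.

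Fth1 encodes the ferritin heavy chain, which oxidises iron for storage. It read 14.09 and 14.03 in WT sham, 14.01 and 14.03 in Hsp72Tg sham, 14.07, 14.10 and 14.19 in WT MCAO and 14.08, 14.04 and 14.21 in Hsp72Tg MCAO. These values lay near the top of the scale, where the highest value of any probe set was 14.7 and a rise may be compressed. The difference over both genotypes was 0.07 (SE 0.06, interval -0.07 to 0.22, adjusted p = 0.571 in limma). The other probe set gave 0.15 (SE 0.06), and quantile normalization brought the main value to 0.00.

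The iron sensors did not pass either. Aco1 encodes cytosolic aconitase, which binds the RNA hairpins once it has lost its iron-sulphur cluster. It read 9.11 and 9.29 in WT sham, 9.35 and 9.12 in Hsp72Tg sham, 9.58, 9.32 and 9.36 in WT MCAO and 9.12, 9.23 and 9.33 in Hsp72Tg MCAO. The difference over both genotypes was 0.11 (SE 0.09, adjusted p = 0.544), with 0.11 and 0.05 on its other probe sets. The WT MCAO arrays were above the WT sham arrays, while the Hsp72Tg arrays overlapped.

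Ireb2 encodes the iron regulatory protein that is broken down when iron is plentiful. It read 9.31 and 9.27 in WT sham, 9.50 and 9.37 in Hsp72Tg sham, 9.12, 9.33 and 9.24 in WT MCAO and 9.21, 9.18 and 9.05 in Hsp72Tg MCAO. WT MCAO 2 lay within the sham range and the other MCAO arrays below it. The difference over both genotypes was -0.17 (SE 0.07, interval -0.33 to -0.02, unadjusted p = 0.0345, adjusted p = 0.22 in limma). Ireb2 had a single probe set.

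Within each genotype none of the 8 genes passed in limma. In WT (3 MCAO arrays against 2 sham arrays) 0.055% of all genes passed, and 2 of the 8 iron genes had an unadjusted p under 0.05 against 10.2% of all genes. Slc39a14 stood at 0.82 (SE 0.17, adjusted p = 0.145) and Slc40a1 stood at -0.65 (SE 0.27, adjusted p = 0.435). All WT MCAO arrays were above the WT sham arrays for Slc39a14 and Aco1 (0.22, SE 0.12), which held for 16.4% of all genes, and all were below for Slc40a1 and Slc11a2 (-0.16, SE 0.19), which held for 22.5%. Slc39a14 passed in WT when the 5 WT arrays were fitted alone (adjusted p = 0.00267) and without Hsp72Tg MCAO 1 (adjusted p = 0.00784). The share of 0.055% belongs to the fit with all arrays and not to these fits. Far more of all genes passed in WT with the WT arrays alone, as counted in the closing section. Without Hsp72Tg MCAO 1, 12.4% of all genes passed over both genotypes.

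In Hsp72Tg (3 MCAO arrays against 2 sham arrays) 0.022% of all genes passed, and 3 of the 8 iron genes had an unadjusted p under 0.05 against 12% of all genes. Slc39a14 stood at 0.73 (SE 0.17, adjusted p = 0.321), Slc40a1 stood at -0.75 (SE 0.27, adjusted p = 0.361) and Ireb2 at -0.29 (SE 0.10, adjusted p = 0.358). The MCAO arrays were all above the sham arrays for Slc39a14 and Fth1 (0.09, SE 0.09), against 9.05% of all genes, and all below for Slc40a1 and Ireb2, against 12.8%. Without Hsp72Tg MCAO 1, Slc39a14 stood at 0.91 and passed in Hsp72Tg (adjusted p = 0.00522). The share of 0.022% belongs to the fit with all arrays, and without that array 12.4% of all genes passed over both genotypes.

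**Figure D3:**
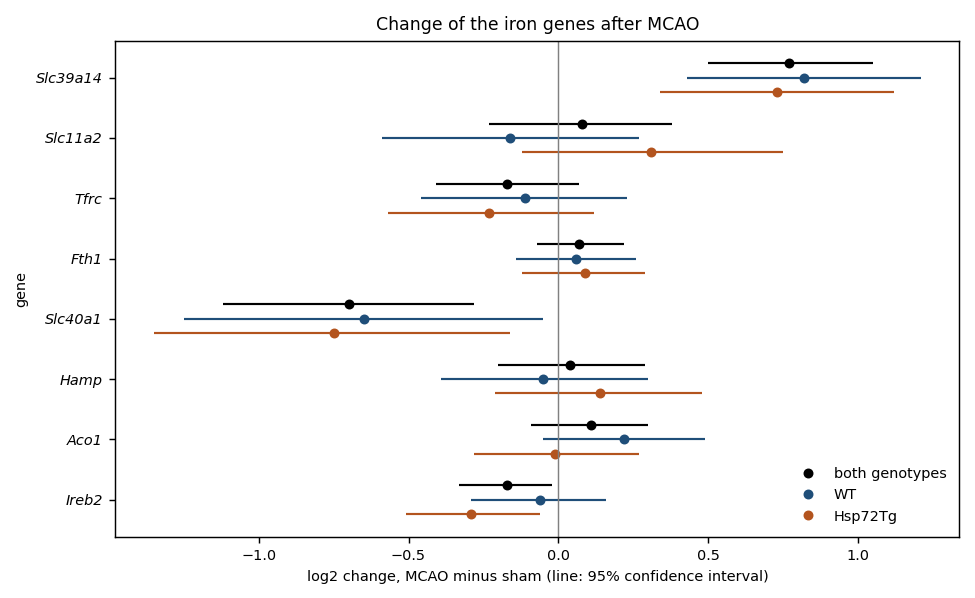
Log2 change after MCAO (horizontal axis, MCAO minus sham) of the 8 measured iron genes, over both genotypes (6 against 4 arrays), in WT and in Hsp72Tg (3 against 2 each). Points are limma estimates and lines 95% confidence intervals without adjustment for the number of genes. Slc39a14 lies at 0.77, 0.82 and 0.73 and Slc40a1 at -0.70, -0.65 and -0.75, while the intervals of Fth1, Tfrc, Hamp, Aco1 and Slc11a2 include 0.

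The study's question was how Hsp72 overexpression alters the response to stroke. For the iron genes no difference between genotypes passed. The change after MCAO differed between Hsp72Tg and WT by -0.09 for Slc39a14 (interval -0.64 to 0.46) and by -0.10 for Slc40a1 (interval -0.94 to 0.74), and the widest differences were 0.48 for Slc11a2 (interval -0.14 to 1.09) and -0.23 both for Aco1 (interval -0.61 to 0.16) and for Ireb2 (interval -0.54 to 0.09). The value of Slc11a2 turned to -0.18 and -0.26 on 2 of its other probe sets, and that of Aco1 to 0.02 on 1. In this test 0% of all genes passed, and 0 of the 8 iron genes had an unadjusted p under 0.05 against 1.75% of all genes. On the probe sets used, the interval of Slc40a1 includes differences as large as its own change after MCAO, and that of Slc39a14 does not. On each of the other Slc39a14 probe sets the interval does include them. It was -0.59 to 0.41 on the probe set with a change of 0.35, for example.

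After MCAO, Hsp72Tg minus WT ran from -0.19 for Aco1 (interval -0.44 to 0.05) to 0.20 for Slc11a2 (interval -0.19 to 0.59), with Slc39a14 at -0.03 (interval -0.38 to 0.32) and Slc40a1 at -0.02 (interval -0.56 to 0.51). After sham surgery the differences ran from -0.28 for Slc11a2 (interval -0.75 to 0.20) to 0.15 for Ireb2 (interval -0.10 to 0.39). In both comparisons 0% of all genes passed and 0 of the 8 iron genes had an unadjusted p under 0.05 (2.68% and 1.56% of all genes). These signs rest on the probe set used: on another probe set of the gene the sign turned after MCAO for Fth1, Tfrc, Slc40a1, Slc11a2, Slc39a14 and Aco1, and after sham surgery for Tfrc, Slc40a1, Slc11a2, Slc39a14 and Hamp. These comparisons share arrays with the MCAO changes above.

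A wider list of 50 genes placed the 8 among the rest of iron handling, of which 47 were measured. Over both genotypes 3 rose and 0 fell in limma, which is 6.38% against 1.46% of all genes, with a median of 0.03. All MCAO arrays were above all sham arrays for 5 genes (3.19% of all genes) and below for 1 (3.41%). Without Hsp72Tg MCAO 1 the count was 10 genes, all higher, where 12.4% of all genes passed, without WT sham 1 it was 0, where 0.0934% passed, and without both it was 8, where 6.47% passed. The risers were an iron oxidase, a siderophore carrier and a heme-degrading enzyme. With all arrays no gene of this wider list passed for uptake, storage, hepcidin control or mitochondrial iron. The wider list does not hold the 8 genes above, among them the importer Slc39a14. The list and its members were chosen with results of these data known, among them the values of Hmox1 and Lcn2. Both are among the 3 risers, so the share of 6.38% is no test of the list.

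Of 3 genes of export and oxidation 1 rose. Cp encodes ceruloplasmin, the copper oxidase that loads exported iron onto transferrin. It read 7.87 to 8.36 on the sham arrays and 9.67, 9.42 and 9.55 in WT MCAO and 8.59, 9.64 and 9.98 in Hsp72Tg MCAO. All MCAO arrays were higher than all sham arrays, with Hsp72Tg MCAO 1 nearest to them. The rise was 1.28 (SE 0.23, adjusted p = 0.0377), a 2.43-fold difference. Its 8 probe sets gave -0.02 to 1.75, so the size depends on the probe set. Heph, the membrane oxidase related to ceruloplasmin, stood at -0.32 (SE 0.12) and did not pass.

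Hmox1, the inducible heme oxygenase that frees iron from heme, was the 1 of 8 genes of heme transport and breakdown that rose. It read 6.01 to 6.15 on the sham arrays, 8.76, 8.54 and 8.83 in WT MCAO and 7.02, 8.22 and 9.63 in Hsp72Tg MCAO. The rise was 2.43 (SE 0.39, adjusted p = 0.0281 in limma). The heme exporter Flvcr1 stood at 0.31 and did not pass.

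Lcn2, the lipocalin that binds bacterial iron carriers, was the 1 of 7 genes of extracellular binding that rose. It read 5.27 to 6.79 on the sham arrays, 10.48, 9.84 and 10.67 in WT MCAO and 6.79, 12 and 11.06 in Hsp72Tg MCAO. Hsp72Tg MCAO 1 thus matched the highest sham array to 2 decimals. The rise was 4.38 (SE 0.84, adjusted p = 0.0428 in limma). The haemoglobin binder Hp stood at 0.54 and did not pass.

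These 3 calls depend on most single arrays. Cp and Lcn2 still passed in 2, and Hmox1 in 3, of the 10 fits that left out 1 array. None of the 3 passed without any one of the 4 sham arrays or any one of the 3 WT MCAO arrays. The range of adjusted p without those arrays was 0.0689 to 0.159 for Cp, 0.0795 to 0.16 for Lcn2 and 0.0565 to 0.122 for Hmox1. Cp was lost without Hsp72Tg MCAO 2 too (adjusted p = 0.0524), and Lcn2 without Hsp72Tg MCAO 3 (adjusted p = 0.0736).

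Without Hsp72Tg MCAO 1 the 3 rises were larger, at 1.49 for Cp (adjusted p = 5.47e-05), 2.74 for Hmox1 (adjusted p = 9.86e-05) and 5.17 for Lcn2 (adjusted p = 5.04e-06). Without both WT sham 1 and Hsp72Tg MCAO 1 they were 1.60, 2.74 and 5.18, and all 3 passed. The value of Lcn2 ran from 3.87 without Hsp72Tg MCAO 2 to that 5.17, so its fold difference is uncertain. Lcn2 was also lost with the trend and robust options (adjusted p = 0.0911) and when all probe sets were tested (adjusted p = 0.0541).

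The other roles gave no calls with all arrays. Of 9 genes of uptake and reduction 0 passed in limma, with Scara5, a ferritin receptor, at 0.87 (SE 0.25, adjusted p = 0.107) and the metalloreductase Steap2 at -0.28 (SE 0.09, adjusted p = 0.143). Of 5 measured genes of storage and cytosolic handling 0 passed, with Fbxl5, the sensor that targets iron regulatory proteins for degradation, at -0.25 and the iron chaperone Pcbp2 at 0.15. Of 9 genes of hepcidin control 0 passed, with the BMP targets Id1 at 0.79 (SE 0.19, adjusted p = 0.0727) and Smad6 at 0.75. Of 6 measured genes of mitochondrial iron and heme synthesis 0 passed, with the iron importer Slc25a28 at 0.24 and the cysteine desulphurase Nfs1 at -0.16. Within WT and within Hsp72Tg 0 of the 47 genes passed, where 12 in WT (16.4% of all genes) and 9 in Hsp72Tg (9.05%) had all MCAO arrays above the sham arrays and 8 (22.5%) and 5 (12.8%) had them all below.

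Several of these genes passed in limma once Hsp72Tg MCAO 1 was left out, where 12.4% of all genes passed. They were Scara5 (1.08, adjusted p = 0.00124), Id1 (0.93, adjusted p = 0.00178), Hp (0.70, adjusted p = 0.00172), Flvcr1 (0.43, adjusted p = 0.00397) and Smad6 (0.99, adjusted p = 0.0444). The others of the 10 were Cp, Hmox1 and Lcn2, and Cd163 and Steap4, the last pair named after their values were seen. Without both WT sham 1 and Hsp72Tg MCAO 1, Scara5, Id1, Hp and Flvcr1 passed and Smad6 did not. With array weights Scara5 (adjusted p = 0.0308), Id1 (0.014) and Hp (0.0423) passed. In that fit more of all genes passed than in the main fit, as counted in the closing section. Its lowest weights went to Hsp72Tg MCAO 1 (0.47) and Hsp72Tg MCAO 2 (0.49). The other probe set of Scara5 gave -0.13, so its direction rests on the probe set used.

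**Figure D4:**
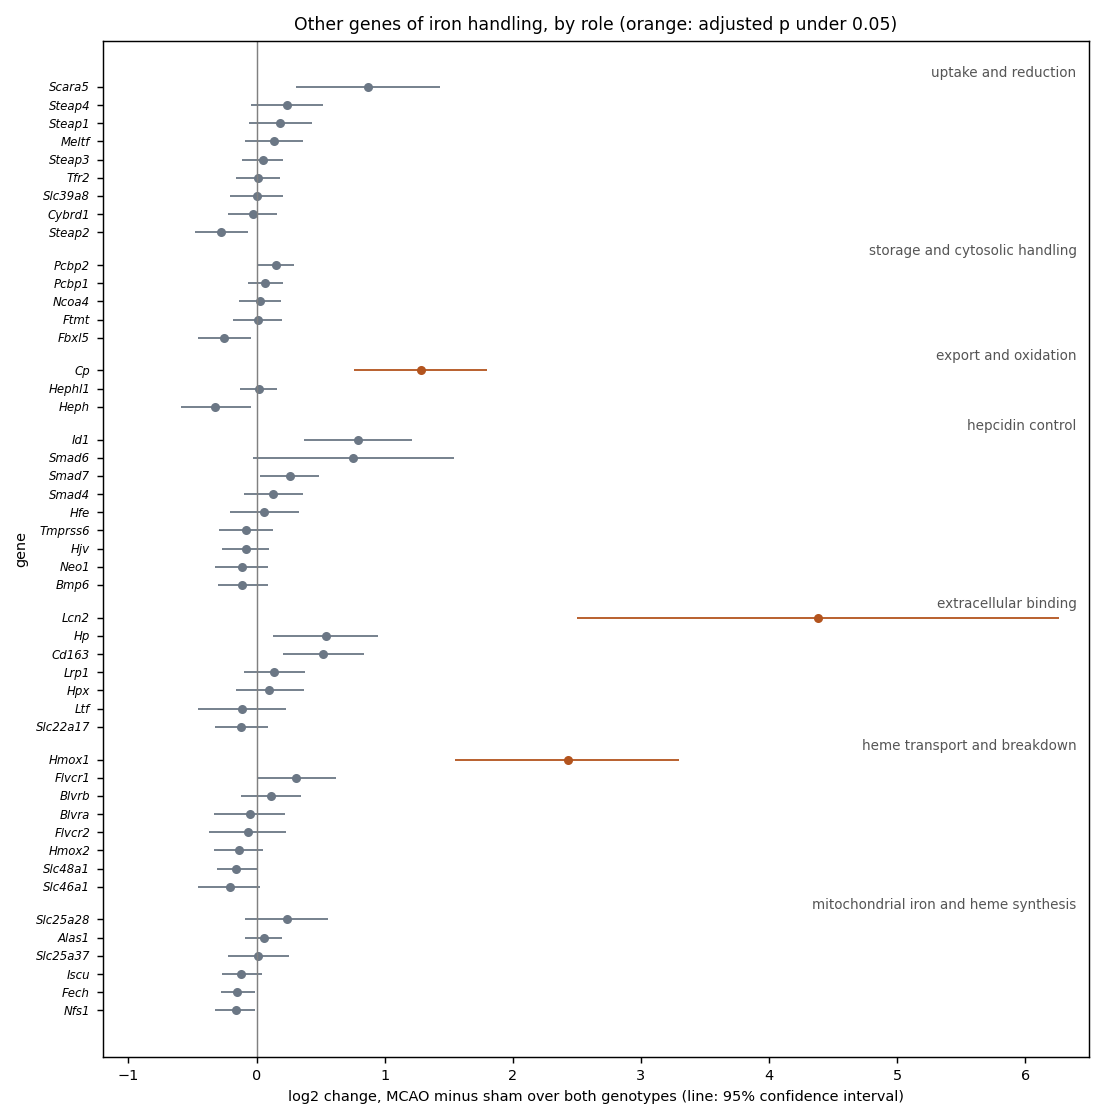
Log2 change after MCAO over both genotypes (horizontal axis) of the 47 measured genes of the wider iron list, by role. Points are limma estimates, lines 95% confidence intervals, and orange marks an adjusted p under 0.05. Cp (1.28), Hmox1 (2.43) and Lcn2 (4.38) are the genes in orange, and the genes of the other roles lie between -0.28 and 0.87.

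The RNA came from whole hemisphere tissue, where fewer cells of a type and less RNA per cell cannot be told apart. Over both genotypes, 4 of 8 measured macrophage and activated microglia markers rose (median 1.28), 2 of 9 endothelial markers (median 0.60) and 1 of 8 astrocyte markers, Gfap (median of the 8 markers 0.12). Of 9 oligodendrocyte markers (median -0.01) 1 fell, Mog. The others ran from -0.83 for Aspa to 0.34 for Cldn11, and none of them passed. With all arrays 1.46% of all genes passed, and without Hsp72Tg MCAO 1 12.4% passed. Without Hsp72Tg MCAO 1, 7 of the macrophage markers rose, and 5 endothelial markers rose and 2 fell, while without WT sham 1 no marker of any list passed. With all arrays none passed among 6 markers of resting microglia (median -0.31), 6 of neutrophils (0.28), 5 of red blood cells (0.10), 9 of choroid plexus (-0.05), 7 of neurons (-0.17) and 7 of cerebellar granule cells (-0.36).

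Slc39a14 and Slc40a1 moved beside these markers. The mean level of the macrophage and activated microglia markers was 6.31 to 6.49 on the sham arrays, 7.95 to 8.11 in WT MCAO and 7.04 to 8.48 in Hsp72Tg MCAO, and that of the endothelial markers 8.25 to 8.56, 8.65 to 8.92 and 8.55 to 9.01. The resting microglia markers read 8.12 to 8.73 on the sham arrays, 7.80 to 8.05 in WT MCAO and 7.48 to 8.56 in Hsp72Tg MCAO. The part of these cell types in the values of the iron genes was not tested. Red blood cell markers, which would accompany blood left in the tissue, stood at 5.18 to 5.57 on the sham arrays and 5.31 to 5.95 on the MCAO arrays. Of 9 listed, 5 were measured. The means of Hba-a1, Hba-a2 and Slc4a1 lay below the lower quartiles of the arrays (5.14 to 5.21), so these markers say little about blood.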

How the data were processed

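RNA from brain hemispheres was measured on 10 Affymetrix arrays. The authors deposited log2 expression values per probe set, which the submitters' processing notes credit to RMA, with the version and settings not given in the sources used here. RMA corrects background, normalizes between arrays and compresses changes near the bottom and top of the scale. The values ran from 3.49 to 14.7, with array medians of 6.67 to 6.73. Detection flags were not used, and the number of arrays limits the precision. The labels do not say whether replicates are separate animals, so p-values measure the spread between these samples.

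Of 45101 probe sets, 64 controls were left out and 34945 carried 1 symbol, 932 several and 9160 none in the platform annotation. Of the 34945, 34741 matched the RefSeq gene table of GRCm38.p6 and 0 symbols changed. Each gene was read from its probe set with the highest mean, which left 18193 genes.

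Group means were fitted over all 10 arrays with limma 3.58.1 in R 4.3.3 (lmFit, contrasts.fit, eBayes; 6 residual and 3.72 prior degrees of freedom), with Benjamini-Hochberg adjusted two-sided p under 0.05 over all genes as the threshold. The fit was tested on simulated data. Settings varied were a block for the replicate number, only the arrays compared, trend and robust options, array weights, median centring, quantile normalization, the mean over probe sets, each probe set, a filter on dim genes, leaving out each array, and leaving out WT sham 1 with Hsp72Tg MCAO 1. The members, the lists, the alternatives and the pair of doubted arrays were chosen with earlier results of these data known. Named were all members with all their probe sets, the wider-list genes that passed and up to 2 per role with the largest change over both genotypes, Hspa1a and Hspa1b, the 3 genes most like each member that passed, and markers moving with a member. The 3 genes most like Trf could not be given, since Trf has no probe set with 1 symbol.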

Additional observations from a re-analysis of the deposited data

How the results depend on the processing

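Over both genotypes 1 iron gene and 266 genes passed. With the replicate block it was 0 iron genes and 19 genes. Whether the numbers pair the samples could not be decided. In their deviations from the group means, same-numbered sham arrays correlated at -0.02 and MCAO arrays at 0.05, -0.16 and 0.25. With 2 sham arrays per group the deviations mirror each other, so both sham pairs give the same value. Of the 6 MCAO arrays 2 correlated best with their own number. With the block 0 genes passed in WT and 0 in Hsp72Tg. Cp, Hmox1 and Lcn2 did not pass with the block (adjusted p = 0.162, 0.11 and 0.168). With the mean over probe sets 0 iron genes passed over both and 6 genes in WT, with array weights 1116 genes over both and, in WT, 1 iron gene and 1358 genes, and with quantile normalization 6 genes in WT. With only the arrays compared (not possible for contrasts that use all groups), 1 iron gene and 955 genes passed in WT, 0 genes in Hsp72Tg and 3 genes between genotypes after sham surgery. Without both WT sham 1 and Hsp72Tg MCAO 1, 2 iron genes and 1177 genes passed over both, 148 genes in WT, 1 iron gene and 780 genes in Hsp72Tg, 1 gene in the difference of the changes and 2 genes between genotypes after sham surgery. Leaving out single arrays, 0 to 2 iron genes and 11 to 2251 genes passed over both, 0 to 1 and 0 to 463 in WT, 0 to 1 and 0 to 1181 in Hsp72Tg, and 0 to 2, 0 to 5 and 0 to 3 genes for the difference of the changes and for genotype after MCAO and after sham surgery. The causes of these shifts were not tested.

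None of the values whose sign turned had passed, and between genotypes the alternatives were followed for Slc39a14, Slc40a1, Aco1 and Slc11a2 in the difference of the changes, for Aco1 and Slc11a2 after MCAO and for Slc11a2 and Ireb2 after sham surgery. Fth1 came to 0.00 over both and -0.02 in Hsp72Tg with quantile normalization. Slc11a2 over both came to -0.05 with the mean over probe sets, to -0.16 and -0.13 on 2 other probe sets, and from -0.08 to 0.23 without single arrays. In Hsp72Tg it came to -0.03 with the mean and to -0.25 and -0.26 on those probe sets. Hamp came to 0.01 in WT with the mean and 0.06 on its other probe set, and without single arrays ran from -0.04 to 0.11 over both, -0.11 to 0.00 in WT and -0.02 to 0.27 in Hsp72Tg. Aco1 in Hsp72Tg (-0.01) came to 0.02 with array weights and with quantile normalization, 0.03 with median centring, 0.05 with the mean and without the pair of arrays, 0.10 and 0.06 on its other probe sets, and -0.13 to 0.11 without single arrays.

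For the difference of the changes, Aco1 came to 0.02 on 1 probe set and Slc11a2 to -0.18 and -0.26 on 2. Slc39a14 came to 0.02 with the mean, 0.04 without the pair, 0.19 and 0.07 on 2 other probe sets and -0.26 to 0.09 without single arrays. Slc40a1 came to 0.04, 0.03 and 0.17 in the same order, and -0.42 to 0.22 without single arrays. Between genotypes after MCAO, Aco1 came to 0.01 and 0.04 and Slc11a2 to -0.07 and -0.01 on other probe sets, and Slc39a14 went from -0.03 to 0.13, 0.18 and 0.20 and Slc40a1 from -0.02 to 0.15. After sham surgery Slc11a2 came to 0.04 with the mean, 0.11, 0.24 and 0.08 on its other probe sets and -0.58 to 0.03 without single arrays.

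With 2 or 3 arrays per group, values near the lower quartile (Hamp, a Slc39a14 probe set) or near the top of the scale (Fth1) limit what could be seen. Median centring and quantile normalization moved the median change of all genes over both genotypes from -0.0259 to -0.0177 and -0.0193.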
